A study of Homo sapiens with 5 samples.

Results

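The 10 genes described here belong to the WNT pathway or are switched on by it as feedback: CTNNB1, APC, AXIN2, RNF43, ZNRF3, NKD1, DKK1, TCF7, TCF7L2 and LGR5. They were chosen by name from the 20030 gene symbols of the tables, and all 10 were present. Transcripts were measured by RNA sequencing in HCT116 cells, a human line from a colorectal cancer that carries mutant beta-catenin. Cells received siRNAs against SP1 and SP3 together (double knockdown, 1 library), an siRNA against SP3 (1 library), an siRNA against SP1 (1 library) or were controls (2 libraries, called control 1 and control 2). The labels give the last of these as control and do not say which siRNA, if any, they received. Such siRNAs lower the level of the transcript they match, and SP1 and SP3 are related zinc finger factors that bind GC-rich promoter sites. Every library came from the same line, so the beta-catenin mutation is shared by the controls. For siRNA sequence, dose and time of harvest the sources used here give no entry. The labels do not call the control libraries separate cultures, and p-values then reflect spread among these libraries that may be technical. In bulk RNA, fewer cells of a type and less RNA per cell cannot be told apart.

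In the absence of WNT, a destruction complex built on APC and AXIN proteins marks beta-catenin, the product of CTNNB1, for degradation. When WNT binds its receptors, or when beta-catenin is mutated at its phosphorylation sites, the protein is stable, enters the nucleus and activates genes with the TCF factors, among them TCF7 and TCF7L2. Some of those targets restrain the pathway: AXIN2 rebuilds the destruction complex, RNF43 and ZNRF3 remove WNT receptors from the membrane, NKD1 binds Dishevelled, and DKK1 blocks a coreceptor outside the cell. LGR5 marks intestinal stem cells and receives R-spondins, which counter RNF43 and ZNRF3.

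Levels are FPKM, fragments counted per length of transcript and per depth of library, as the authors deposited them. Whole reads could be recovered from the steps of these values, at the shortest length that fits each gene and so as lower limits, and the libraries held 14678068 to 15970519 counted reads. SP1 stood at 43.6% of the control level in the double knockdown, 74.5% with the SP3 siRNA and 42.9% with the SP1 siRNA. SP3 stood at 50.7%, 41.3% and 109% of control in the same order of libraries. Of 12 markers of colorectal epithelium 9 reached 1 FPKM, with 3 called higher and 5 lower in the double knockdown and 2 higher and 5 lower with each single siRNA. EPCAM had 93.7 to 119 FPKM over the libraries. KRT18 had 153 FPKM in the double knockdown, 284 with the SP3 siRNA, 408 with the SP1 siRNA and 750 and 740 in the controls, and CLDN4 had 181, 224, 221, and 630 and 625 FPKM in the same order. KRT8 had 2253, 2361, 1737, and 1749 and 1799 FPKM in that order, and KRT19 had 1571, 1427, 1251, and 1362 and 1321. CLDN7 had 160, 142, 148, and 105 and 102 FPKM, and CLDN3 had 4.12, 4.37, 6.65, and 8.91 and 9.38. CDX1 was listed at 0 and VIL1 at no more than 0.023 FPKM. Leukocyte markers other than CD68, 7 genes, summed to 0.317 FPKM in the double knockdown, 0.422 with the SP3 siRNA, 1.11 with the SP1 siRNA and 19.7 and 20.3 in the controls. With CD68 the sum over 8 markers was 75.6, 94.5, 57.3, and 81.7 and 78.9 FPKM, and the list had 4 lower calls in each comparison with the controls. Fibroblast markers summed to 4.51 FPKM in the double knockdown, 8.43 with the SP3 siRNA, 6.64 with the SP1 siRNA and 9.01 and 9.10 in the controls, nearly all of it COL1A1, with LUM at 0. The part of other cells in the differences below was not tested.

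The promoters of 4 members are printed: DKK1, TCF7L2 and CTNNB1, called higher with the SP3 siRNA, and RNF43, called higher with the SP1 siRNA. TCF7 and ZNRF3 were also called higher with the SP1 siRNA but are not printed. The 4 sequences are thus no comparison between the siRNAs. RefSeq windows of 300 bases, 250 before and 50 after a transcription start, were found for 6 of the 10 members, 11 windows in all. AXIN2, ZNRF3, NKD1 and LGR5 had no window and were not searched. Capitals mark GGGCGG on either strand, the GC box bound by SP factors, and, in DKK1, also CTTTGA on either strand, the core bound by TCF factors.

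DKK1, GRCh38.p14, chr10:52314031-52314330, plus strand: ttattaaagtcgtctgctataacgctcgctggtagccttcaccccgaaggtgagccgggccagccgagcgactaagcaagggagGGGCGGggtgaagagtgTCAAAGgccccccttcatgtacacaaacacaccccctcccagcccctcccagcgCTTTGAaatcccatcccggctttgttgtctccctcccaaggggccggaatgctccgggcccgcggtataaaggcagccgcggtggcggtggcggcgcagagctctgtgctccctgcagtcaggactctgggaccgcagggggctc
TCF7L2, GRCh38.p14, chr10:112949997-112950296, plus strand: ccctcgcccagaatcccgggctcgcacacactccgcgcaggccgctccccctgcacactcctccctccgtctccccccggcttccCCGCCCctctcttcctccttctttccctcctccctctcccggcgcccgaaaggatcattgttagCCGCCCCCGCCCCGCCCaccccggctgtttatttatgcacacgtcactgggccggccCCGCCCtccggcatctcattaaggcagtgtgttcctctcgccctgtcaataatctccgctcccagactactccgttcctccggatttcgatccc
CTNNB1, GRCh38.p14, chr3:41199255-41199554, plus strand: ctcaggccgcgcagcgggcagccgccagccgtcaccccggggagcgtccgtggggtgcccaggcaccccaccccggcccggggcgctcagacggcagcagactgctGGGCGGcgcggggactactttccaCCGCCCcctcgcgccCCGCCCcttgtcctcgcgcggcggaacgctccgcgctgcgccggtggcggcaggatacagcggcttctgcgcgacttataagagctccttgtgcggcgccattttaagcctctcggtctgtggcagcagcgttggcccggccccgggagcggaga
RNF43, GRCh38.p14, chr17:58417485-58417784, minus strand: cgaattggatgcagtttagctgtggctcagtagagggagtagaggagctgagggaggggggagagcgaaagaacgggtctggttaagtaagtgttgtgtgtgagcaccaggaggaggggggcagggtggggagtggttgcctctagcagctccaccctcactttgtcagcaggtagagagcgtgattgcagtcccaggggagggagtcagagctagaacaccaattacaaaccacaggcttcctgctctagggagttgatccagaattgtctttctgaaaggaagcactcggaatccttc

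The TCF7L2 window shown, the first of 3, held 5 GC boxes, of which neighbours 5 bases apart share a base. The CTNNB1 window held 3, the DKK1 window 1, and the RNF43 window shown, the first of 2, held none. The second APC window and the first TCF7 window held 1 each, and the other 5 windows had no match. A GC box was present in 45% of all 35116 windows, 3 or more in 15.8% and 5 or more in 5.14%. Among the 13524 windows of genes tested here the shares were 67.7%, 27.3% and 9.26%. DKK1 held 2 TCF motifs, at 149 and 95 bases before the start, and was the sole one of the 6 searched members with any. At least 1 was present in 12.9% of all windows and at least 2 in 1.29%. Among the windows of tested genes these shares were 8.61% and 0.54%. A match describes the letters of the window and is no measure of binding.

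**Figure D1:**
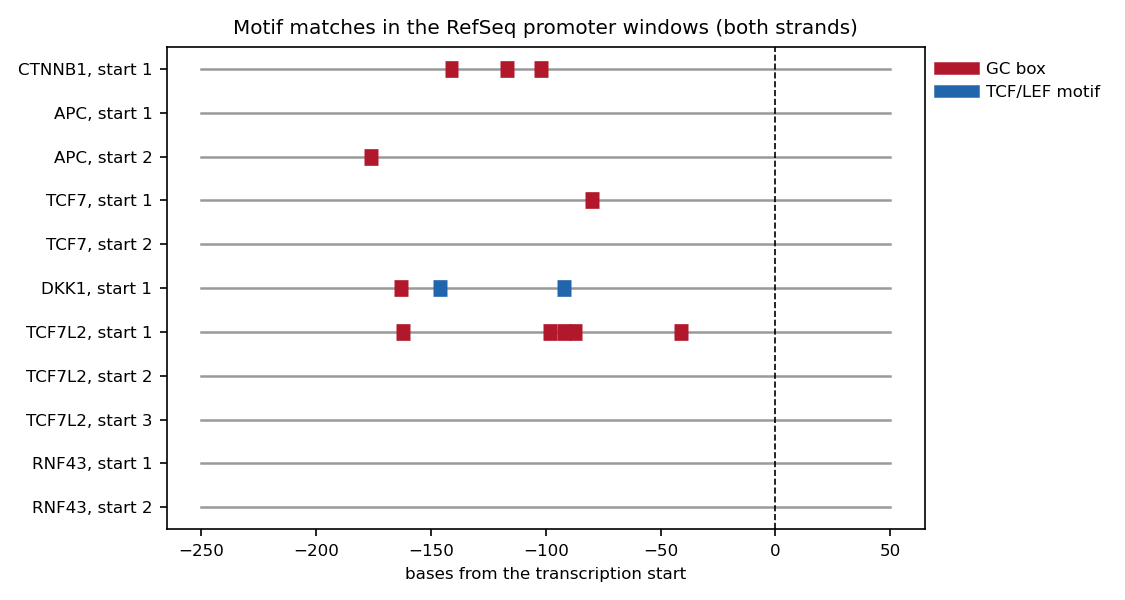
Motif matches in the 11 RefSeq promoter windows of 6 members, with bases from the transcription start on the x axis, GC boxes in red and TCF motifs in blue. TCF7L2 held 5 GC boxes and CTNNB1 held 3, and DKK1 alone of these 6 held TCF motifs.

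Expression of the 10 genes spanned a wide range in the control cells. DKK1 was the most abundant at 114 ± 11.1 FPKM (SD, n = 2), followed by CTNNB1 at 59.8 ± 1.85, TCF7L2 at 33.2 ± 0.629, RNF43 at 6.47 ± 0.511, AXIN2 at 3.51 ± 0.327, NKD1 at 2.11 ± 0.0627, APC at 1.79 ± 0.111, ZNRF3 at 1.55 ± 0.176 and TCF7 at 0.639 ± 0.0572 FPKM. APC and ZNRF3 differed by 0.242 FPKM, less than their summed SD of 0.287, and every other pair of neighbours differed by more than its summed SD. The first 5 ranks were the same in each library. Below them the order changed: ZNRF3 ranked sixth in the double knockdown, APC with the SP3 siRNA, and NKD1 with the SP1 siRNA and in both controls. FPKM rests on the length the authors divided by, which was at least 18833 bases for NKD1, 16695 for TCF7 and 5352 for AXIN2. NKD1 therefore had more reads than AXIN2 in the controls, 610 and 645 against 314 and 279, at a lower FPKM.

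**Figure D2:**
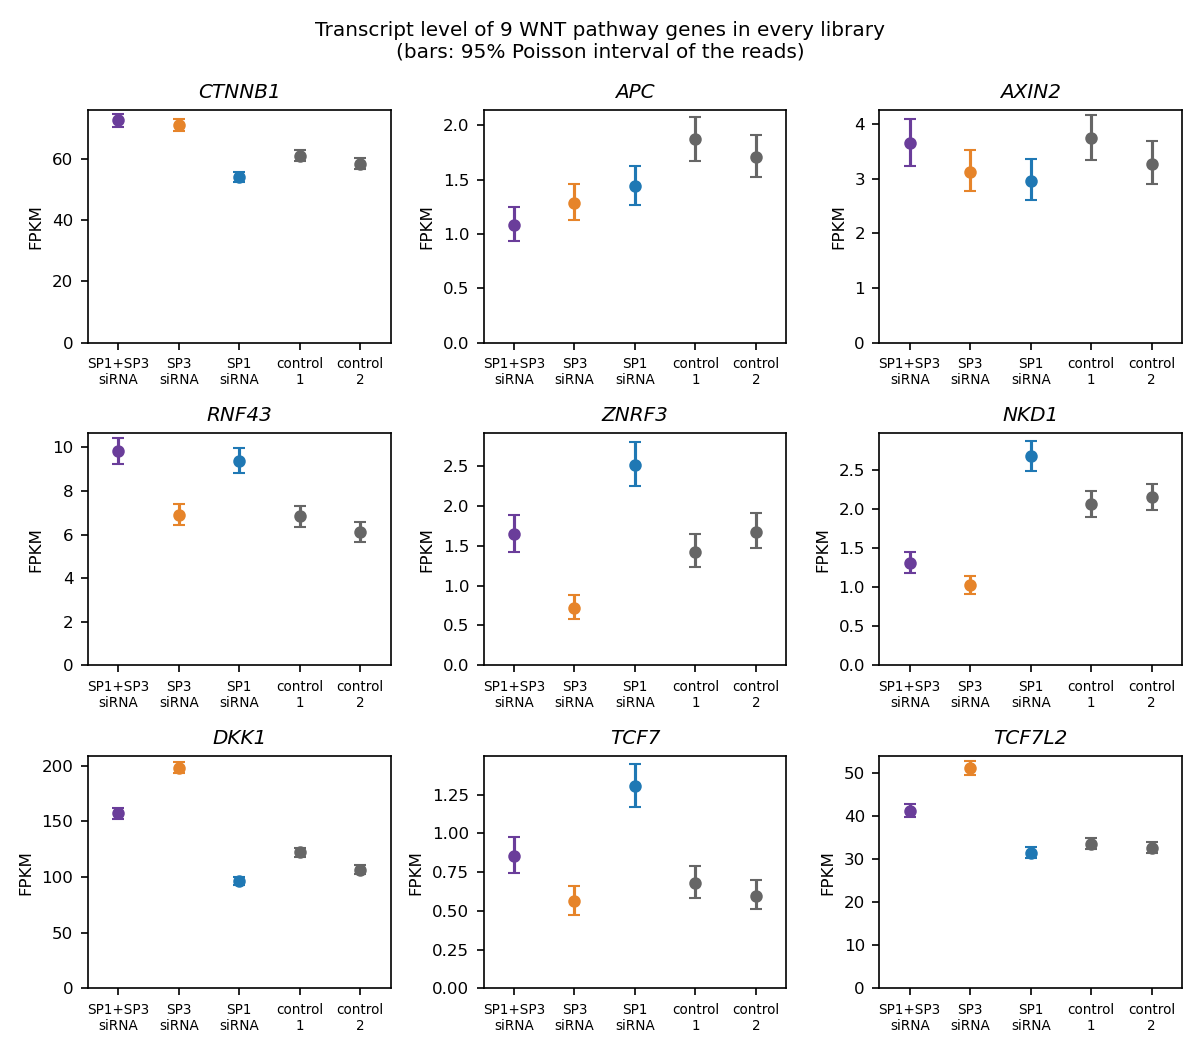
FPKM (y axes, each from 0) of 9 members in the double knockdown, SP3 siRNA, SP1 siRNA and the 2 control libraries, with 95% Poisson intervals that cover counting error. DKK1 and TCF7L2 peaked with the SP3 siRNA, while ZNRF3, NKD1 and TCF7 peaked with the SP1 siRNA.

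Differences were tested with limma on log2(FPKM + 1) over 11728 genes, and a gene was called at a Benjamini-Hochberg adjusted p under 0.05. This scale understates the change of genes with few FPKM, so the percent of control, taken without the added 1, is given beside it. In each group but the controls there is 1 library, so the knockdown libraries are assumed to vary like the controls. Of the 10 members 9 reached 1 FPKM in some library and were tested. The comparisons with control share the same 2 control libraries. In the double knockdown 4 rose and 2 fell, beside 63% of all tested genes called. With the SP3 siRNA 3 rose and 2 fell, beside 61.6%, and with the SP1 siRNA 3 rose and 1 fell, beside 65.4%. TCF7 is among the 3 that rose with the SP1 siRNA, and it passed the filter through that library. These shares lie near the background or below it. The median difference of the 9 was 0.18 in the double knockdown, -0.07 with the SP3 siRNA and -0.07 with the SP1 siRNA, beside medians over all tested genes of 0.01, -0.02 and 0.06. At least 1.5-fold in FPKM + 1 from each control, a rule without a test, was reached by no member in the double knockdown (23.5% of tested genes), by 3 members with the SP3 siRNA (21.8%), DKK1 and TCF7L2 upward (9.41%) and NKD1 downward (12.4%), and by no member with the SP1 siRNA (24.8%).

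**Figure D3:**
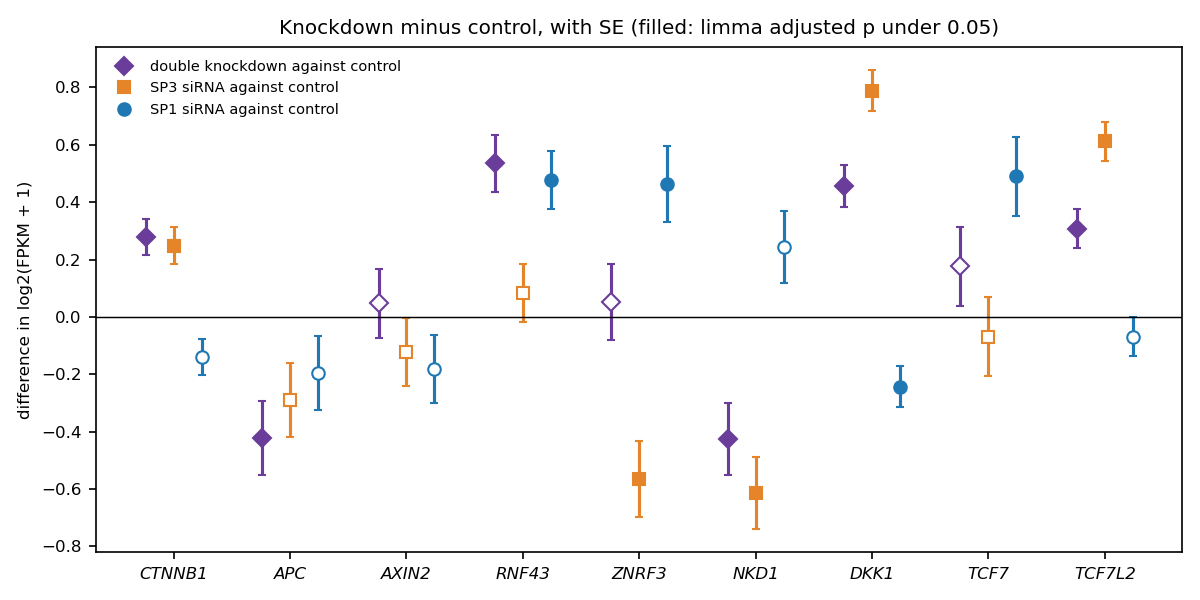
Difference in log2(FPKM + 1) from the mean of the controls (y axis) with its SE for 9 members, as diamonds for the double knockdown, squares for the SP3 siRNA and circles for the SP1 siRNA, filled where the limma adjusted p was under 0.05. AXIN2 has no filled point, and ZNRF3 lies below 0 with the SP3 siRNA and above 0 with the SP1 siRNA.

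CTNNB1, which encodes beta-catenin, stood at 72.7 FPKM in the double knockdown, 71.2 with the SP3 siRNA, 54.1 with the SP1 siRNA and 61.1 and 58.5 FPKM in the controls. The double knockdown and SP3 siRNA libraries thus lay above both controls and the SP1 siRNA library below both. The rise was 0.28 ± 0.06 SE in the double knockdown (limma adjusted p = 0.00141), 122% of control with an exact 95% interval of 117 to 126% from the reads. With the SP3 siRNA it was 0.25 ± 0.06 (adjusted p = 0.00341), 119% of control (115 to 123%). The SP1 siRNA difference of -0.14 ± 0.06 missed the threshold (adjusted p = 0.0654), although it passed under median-ratio scaling (-0.21, adjusted p = 0.0157) and with voom on recovered reads (-0.14, adjusted p = 0.0494). In a model that takes the double knockdown as the sum of the single effects, called the additive model below, the SP3 siRNA difference missed the threshold (0.32, adjusted p = 0.0921).

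TCF7L2, the main TCF factor of these 10 genes by level, stood at 41.3 FPKM in the double knockdown, 51.3 with the SP3 siRNA, 31.6 with the SP1 siRNA and 33.6 and 32.8 FPKM in the controls. It was thus highest with the SP3 siRNA, with the double knockdown between that library and the controls. TCF7L2 rose by 0.31 ± 0.07 in the double knockdown (limma adjusted p = 0.0011), 124% of control (119 to 130%). With the SP3 siRNA it rose by 0.61 ± 0.07 (adjusted p = 1.65e-06), 155% of control (148 to 161%), and this call held in the additive model (0.51, adjusted p = 0.0429). The SP1 siRNA difference was -0.07 with a 95% interval of -0.21 to 0.08 (limma adjusted p = 0.385).

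TCF7, the TCF factor named for T cells that is also a WNT target, was low throughout, at 0.853 FPKM in the double knockdown, 0.563 with the SP3 siRNA, 1.30 with the SP1 siRNA and 0.680 and 0.599 FPKM in the controls. These values rest on 209, 150, 334 and, in the controls, 178 and 159 reads. TCF7 passed the filter through the SP1 siRNA library alone, so a difference there was built into its selection. With the SP1 siRNA it was 204% of control by reads (175 to 238%), a log2 difference of 0.49 ± 0.14 (limma adjusted p = 0.00575) that missed the threshold in the additive model (0.39, adjusted p = 0.114). The T cell marker CD3E was at 0 in the 3 knockdown libraries and at 0.674 and 0.582 FPKM in the controls. The differences in the double knockdown, 0.18 ± 0.14, and with the SP3 siRNA, -0.07 ± 0.14, were not called (adjusted p = 0.28 and 0.682). With voom on recovered reads the double knockdown passed (0.42, adjusted p = 0.0345).

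APC, the scaffold of the destruction complex and the tumour suppressor most often lost in colorectal cancer, stood at 1.08 FPKM in the double knockdown, 1.28 with the SP3 siRNA, 1.44 with the SP1 siRNA and 1.87 and 1.71 FPKM in the controls. Each knockdown library thus lay below both controls. APC fell by 0.42 ± 0.13 in the double knockdown (limma adjusted p = 0.0106), to 60.4% of control (51 to 71.3%, from 182 reads). The SP3 siRNA difference was -0.29 with a 95% interval of -0.57 to -0.01 and was not called (adjusted p = 0.0664), but it passed with voom on recovered reads (-0.48, adjusted p = 0.00529). The SP1 siRNA difference was -0.20 with an interval of -0.47 to 0.08 (adjusted p = 0.201).

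AXIN2, a direct beta-catenin target widely read as a gauge of the pathway, stood at 3.65 FPKM in the double knockdown, 3.14 with the SP3 siRNA, 2.97 with the SP1 siRNA and 3.74 and 3.28 FPKM in the controls. The double knockdown lay between the controls, and each single knockdown lay below both. None of these differences was called by limma. They were 0.05 in the double knockdown (95% interval -0.21 to 0.30, adjusted p = 0.746), -0.12 with the SP3 siRNA (-0.38 to 0.13, adjusted p = 0.383) and -0.18 with the SP1 siRNA (-0.44 to 0.07, adjusted p = 0.189). In percent of control the intervals from the reads were 90.1 to 120%, 77.1 to 103% and 72.6 to 98.4%.

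RNF43 and ZNRF3 are paralogous membrane E3 ubiquitin ligases that clear Frizzled receptors from the cell surface. RNF43 stood at 9.81 FPKM in the double knockdown, 6.90 with the SP3 siRNA, 9.38 with the SP1 siRNA and 6.83 and 6.11 FPKM in the controls. The double knockdown and SP1 siRNA libraries lay above both controls, and the SP3 siRNA library just above the higher control. RNF43 rose by 0.53 ± 0.10 in the double knockdown (limma adjusted p = 0.00026), 152% of control (140 to 164%), and by 0.48 ± 0.10 with the SP1 siRNA (adjusted p = 0.000654), 145% (134 to 157%). The SP3 siRNA difference was 0.08 with a 95% interval of -0.13 to 0.30 (adjusted p = 0.49).

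ZNRF3 stood at 1.64 FPKM in the double knockdown, 0.721 with the SP3 siRNA, 2.51 with the SP1 siRNA and 1.42 and 1.67 FPKM in the controls. It was thus lowest with the SP3 siRNA and highest with the SP1 siRNA, and the double knockdown lay between the controls. ZNRF3 fell by 0.56 ± 0.13 with the SP3 siRNA (limma adjusted p = 0.00169), to 46.5% of control (37 to 58%, from 100 reads). It rose by 0.46 ± 0.13 with the SP1 siRNA (adjusted p = 0.00608), to 162% (140 to 188%). In the double knockdown the difference was 0.05 with a 95% interval of -0.23 to 0.33 (adjusted p = 0.746). In the additive model RNF43 and ZNRF3 with the SP1 siRNA and ZNRF3 with the SP3 siRNA missed the threshold (adjusted p = 0.0603, 0.0612 and 0.0543). Those differences were 0.47, 0.53 and -0.50 there.

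LGR5 was listed at 0 FPKM in the double knockdown, with the SP3 siRNA and in both controls, and at 0.0283 FPKM with the SP1 siRNA, which is 1 read at the shortest transcript length that gives whole reads and more at a longer one. With 1 library above 0, the shortest length gives 1 read by construction, so the reads do not place LGR5 against the floor of 3 reads. LGR5 was under 1 FPKM in every library and was not tested, and no difference is given. LGR4, a relative of LGR5 that receives R-spondins in many tissues, was present at 3.55 FPKM in the double knockdown, 3.80 with the SP3 siRNA, 4.79 with the SP1 siRNA and 8.87 and 8.72 FPKM in the controls. It fell by 1.10 ± 0.10, 1.03 ± 0.10 and 0.76 ± 0.10 in the same order of knockdowns (limma adjusted p = 2.26e-07, 5.29e-07 and 1.14e-05). The falls with the single siRNAs missed the threshold in the additive model, at -0.74 for SP3 (adjusted p = 0.0512) and -0.47 for SP1 (adjusted p = 0.133).

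DKK1, a secreted inhibitor that binds the coreceptors LRP5 and LRP6, stood at 157 FPKM in the double knockdown, 198 with the SP3 siRNA, 96.3 with the SP1 siRNA and 122 and 107 FPKM in the controls. No library overlapped another group: the double knockdown and the SP3 siRNA lay above both controls and the SP1 siRNA below both. DKK1 rose by 0.46 ± 0.07 in the double knockdown (limma adjusted p = 5.72e-05), 137% of control (132 to 143%). With the SP3 siRNA it rose by 0.79 ± 0.07 (adjusted p = 2.12e-07), 173% of control (167 to 179%), and this call held in the additive model (0.75, adjusted p = 0.0221). It fell by 0.24 ± 0.07 with the SP1 siRNA (adjusted p = 0.00803), to 84.2% (80.6 to 88%). That difference was -0.14 without control 1 and -0.34 without control 2, with no test in either case. The call missed the threshold in the additive model (-0.28, adjusted p = 0.136). Control 2 minus control 1 was itself -0.20 on the log2 scale.

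NKD1, an intracellular inhibitor that binds Dishevelled, stood at 1.32 FPKM in the double knockdown, 1.03 with the SP3 siRNA, 2.68 with the SP1 siRNA and 2.07 and 2.15 FPKM in the controls. The double knockdown and the SP3 siRNA lay below both controls, and the SP1 siRNA above both. NKD1 fell by 0.42 ± 0.13 in the double knockdown (limma adjusted p = 0.00844), to 62.4% of control (55.4 to 70.2%). It fell by 0.61 ± 0.13 with the SP3 siRNA (adjusted p = 0.000598), to 48.8% (43 to 55.4%), and this call held in the additive model (-0.64, adjusted p = 0.0297). The SP1 siRNA difference of 0.24 ± 0.13 was not called (adjusted p = 0.101), although the interval from the reads was 116 to 139% of control and voom on recovered reads passed it (0.35, adjusted p = 0.00129).

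Set directly against each other, the single knockdowns differed in 7 of the 9 tested members, beside 62.7% of all tested genes. With the SP3 siRNA, DKK1 (1.03 ± 0.08, limma adjusted p = 6.44e-08), TCF7L2 (0.68 ± 0.08, adjusted p = 2.64e-06) and CTNNB1 (0.39 ± 0.07, adjusted p = 0.000322) were higher than with the SP1 siRNA. ZNRF3 (-1.03 ± 0.15, adjusted p = 3.3e-05), NKD1 (-0.86 ± 0.15, adjusted p = 0.000117), TCF7 (-0.56 ± 0.16, adjusted p = 0.00666) and RNF43 (-0.39 ± 0.12, adjusted p = 0.00769) were lower. In reads, DKK1 was at 206% of its SP1 siRNA level (197 to 215%) and ZNRF3 at 28.7% (22.7 to 36%). TCF7 passed the filter through the SP1 siRNA library, so this difference too was built into its selection. APC and AXIN2 were not called, with 95% intervals of -0.41 to 0.23 and -0.23 to 0.35. These rest on 1 library a side.

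The double knockdown was also set against each single knockdown. Against the SP1 siRNA, 5 members were called beside 47.5% of all tested genes: DKK1 (0.70 ± 0.08), CTNNB1 (0.42 ± 0.07) and TCF7L2 (0.38 ± 0.08) were higher (21% of all tested genes), and NKD1 (-0.67 ± 0.15) and ZNRF3 (-0.41 ± 0.15) lower (26.4%). The ZNRF3 call (limma adjusted p = 0.0369) missed the threshold with a pseudocount of 0.1 (adjusted p = 0.0668) and under median-ratio scaling (adjusted p = 0.062). Against the SP3 siRNA, 4 were called beside 33%: ZNRF3 (0.62 ± 0.15) and RNF43 (0.45 ± 0.12) were higher (17.9% of all tested genes), and DKK1 (-0.33 ± 0.08) and TCF7L2 (-0.31 ± 0.08) lower (15.1%). CTNNB1 differed there by 0.03, with a 95% interval of -0.13 to 0.19.

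The interaction, which is how far the double knockdown departs from both single differences added up, was called by limma in 0 of the 9 members, beside 39.5% of all tested genes. TCF7L2 (-0.24 ± 0.10, adjusted p = 0.0831) was the 1 member with an unadjusted p under 0.05, and voom on recovered reads gave the same counts of 0 called and 1 unadjusted. AXIN2 had the largest interaction of the 9 at 0.35, with a 95% interval of -0.03 to 0.74 (adjusted p = 0.136). ZNRF3, which moved in opposite directions with the single siRNAs, had 0.15 (-0.28 to 0.58), and DKK1 had -0.09 (-0.32 to 0.15). Intervals of this width do not show that the effects add. The siRNA target SP1 itself had an interaction of 0.43, with a 95% interval of 0.20 to 0.67. In the double knockdown SP3 was at 123% of its level with the SP3 siRNA (110 to 138% from the reads). The interaction and the additive model take no account of such differences in target level.

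Without a filter on low values, limma's prior degrees of freedom, the strength of the variance shared across genes, were 1.03 instead of 13.98. Of the 31 calls of members in the 6 comparisons above other than the interaction, 3 then passed: TCF7L2 with the SP3 siRNA against control (adjusted p = 0.0471), and TCF7L2 and NKD1 between the single siRNAs (adjusted p = 0.0457 and 0.0499). Prior degrees of freedom in the additive model were 3.3, with 2 residual degrees of freedom.

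Genes with the most similar profile over the 5 libraries were sought among the 7123 genes that averaged 5 FPKM or more, by Euclidean distance between log2(FPKM + 1) values centred on their mean. For AXIN2 they were EMSY (0.053), MTCH1 (0.067) and UACA (0.083). For CTNNB1 they were GPN2 (0.05), NDUFV2 (0.052) and CCDC130 (0.071). For DKK1, the member with the widest range, they were RAP2C (0.111), MED18 (0.114) and MRPS18B (0.127). MRPS18B, for example, had 36.0 FPKM in the double knockdown, 48.8 with the SP3 siRNA, 23.2 with the SP1 siRNA and 27.1 and 25.8 in the controls.

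The rest of the pathway was read from 6 lists of 106 genes without the 10 members, of which 76 were tested. WNT2B, WNT3A, ROR1, AMER1, CSNK1E and MMP7 reached 1 FPKM in knockdown libraries alone, and WNT11 in the controls alone, so that a difference was built into the selection of these 7 genes. In the double knockdown 21 rose and 25 fell, with the SP3 siRNA 17 rose and 32 fell, and with the SP1 siRNA 27 rose and 21 fell. Over all tested genes 31.9% rose and 31.1% fell in the double knockdown, 29.6% and 32.1% with the SP3 siRNA, and 36.5% and 28.8% with the SP1 siRNA. Of 13 tested receptors 7 fell and 0 rose in the double knockdown (median -0.26), 10 fell and 0 rose with the SP3 siRNA (median -0.41), and 5 fell and 3 rose with the SP1 siRNA (median 0.02). LRP5, the coreceptor that DKK1 binds, was at 13.2 FPKM in the double knockdown, 11.8 with the SP3 siRNA, 19.8 with the SP1 siRNA and 19.0 and 20.2 in the controls. It fell by 0.53 ± 0.08 in the double knockdown and by 0.69 ± 0.08 with the SP3 siRNA (limma adjusted p = 4.13e-05 and 3.39e-06). Its relative LRP6 was at 5.64 FPKM in the double knockdown, 5.05 with the SP3 siRNA, 9.61 with the SP1 siRNA and 6.54 and 6.79 in the controls. LRP6 fell by 0.34 ± 0.10 with the SP3 siRNA and rose by 0.47 ± 0.10 with the SP1 siRNA.

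Of 13 tested ligands and secretion genes 3 rose and 3 fell in the double knockdown, 4 rose and 4 fell with the SP3 siRNA, and 4 rose and 3 fell with the SP1 siRNA. WNT2B and WNT3A are among those 4 rises, and WNT2B passed the filter through the SP1 siRNA library alone. WNT3A is also among the rises in the double knockdown. WNT11, which passed through the controls alone, is among the falls in each comparison. WLS, the carrier that brings WNT proteins to the cell surface, was at 8.41 FPKM in the double knockdown, 15.0 with the SP3 siRNA, 5.74 with the SP1 siRNA and 17.5 and 16.8 in the controls. It fell by 0.95 ± 0.09 in the double knockdown and by 1.43 ± 0.09 with the SP1 siRNA. WNT16, the ligand with the highest level among those named, rose by 0.39 ± 0.07 in the double knockdown, 0.64 ± 0.07 with the SP3 siRNA and 0.58 ± 0.07 with the SP1 siRNA. WNT7B rose by 0.56 ± 0.10 with the SP3 siRNA.

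Secreted inhibitors and their partners had 5 tested members, of which 2 rose and 1 fell in the double knockdown, 1 rose and 3 fell with the SP3 siRNA, and 2 rose and 1 fell with the SP1 siRNA. NOTUM, an enzyme that strips the lipid from WNT proteins and is itself a WNT target, was at 11.0 FPKM in the double knockdown, 4.35 with the SP3 siRNA, 12.0 with the SP1 siRNA and 5.64 and 5.93 in the controls. It rose by 0.82 ± 0.10 in the double knockdown and 0.94 ± 0.10 with the SP1 siRNA (limma adjusted p = 2.99e-06 and 7.2e-07), and fell by 0.34 ± 0.10 with the SP3 siRNA. KREMEN2, a DKK1 receptor, fell by 0.83 ± 0.10 in the double knockdown and 0.88 ± 0.10 with the SP3 siRNA. KREMEN1, its relative, was at 17.1 FPKM in the double knockdown, 9.45 with the SP3 siRNA, 11.3 with the SP1 siRNA and 14.9 and 14.4 in the controls. It rose by 0.21 ± 0.08 in the double knockdown (limma adjusted p = 0.0417), and fell by 0.59 ± 0.08 with the SP3 siRNA and by 0.35 ± 0.08 with the SP1 siRNA.

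Of 19 tested genes of the destruction complex, Dishevelled and their regulators 7 rose and 4 fell in the double knockdown. With the SP3 siRNA 6 rose and 5 fell, and with the SP1 siRNA 7 rose and 4 fell. CSNK1E is among the 6 rises with the SP3 siRNA and AMER1 among the 5 falls. CSNK1E passed the filter through the SP3 siRNA library alone, and AMER1 through the SP1 siRNA library alone. AXIN1, the constitutive relative of AXIN2, was at 8.51 FPKM in the double knockdown, 5.80 with the SP3 siRNA, 6.54 with the SP1 siRNA and 3.81 and 3.56 in the controls, a rise of 1.02 ± 0.10 in the double knockdown (limma adjusted p = 6.52e-07). The kinase gene GSK3A fell by 0.24 ± 0.07 in the double knockdown and by 1.10 ± 0.07 with the SP1 siRNA. The Dishevelled gene DVL2 rose by 0.33 ± 0.08 in the double knockdown, fell by 0.35 ± 0.08 with the SP3 siRNA and rose by 0.88 ± 0.08 with the SP1 siRNA. The Dishevelled gene DVL1 rose by 0.41 ± 0.06 in the double knockdown and by 0.24 ± 0.06 with the SP3 siRNA. The casein kinases CSNK1A1 and CSNK1G3 rose by 0.22 ± 0.06 and 0.35 ± 0.10 in the double knockdown. With the SP3 siRNA they rose by 0.47 ± 0.06 and 0.57 ± 0.10. With the SP1 siRNA CSNK1A1 fell by 0.21 ± 0.06 and CSNK1G3 rose by 0.68 ± 0.10.

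Nuclear effectors and corepressors had 12 tested genes, of which 5 rose and 2 fell in the double knockdown, 2 rose and 2 fell with the SP3 siRNA, and 4 rose and 3 fell with the SP1 siRNA. BCL9, a coactivator that binds beta-catenin, fell by 1.28 ± 0.11 in the double knockdown, and PYGO2, its partner, fell by 1.56 ± 0.12 with the SP1 siRNA. CTNNBIP1, an inhibitor that keeps beta-catenin from the TCF factors, was at 14.9 FPKM in the double knockdown, 18.2 with the SP3 siRNA, 6.44 with the SP1 siRNA and 7.63 and 7.96 in the controls, a rise of 1.12 ± 0.09 with the SP3 siRNA (limma adjusted p = 4.75e-08) and a difference of -0.24 with the SP1 siRNA (adjusted p = 0.0268). JUP, the beta-catenin relative plakoglobin, rose by 0.58 ± 0.06 in the double knockdown and 0.80 ± 0.06 with the SP3 siRNA. CBY1, another beta-catenin antagonist, rose by 0.38 ± 0.10 in the double knockdown and by 1.14 ± 0.10 with the SP1 siRNA.

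Of 14 tested textbook WNT targets 4 rose and 8 fell in the double knockdown (median -0.27). With the SP3 siRNA 4 rose and 8 fell (median -0.17), and with the SP1 siRNA 7 rose and 5 fell (median 0.14). MMP7 is among the rises in each comparison, and it passed the filter through the SP3 siRNA and SP1 siRNA libraries alone. The shares over all tested genes are those given above with the lists. MYC, the growth regulator, was at 47.8 FPKM in the double knockdown, 44.1 with the SP3 siRNA, 136 with the SP1 siRNA and 91.9 and 85.8 in the controls. MYC fell by 0.99 ± 0.07 with the SP3 siRNA (limma adjusted p = 5.72e-09) and rose by 0.60 ± 0.07 with the SP1 siRNA (adjusted p = 1.02e-06). CCND1, cyclin D1, was at 77.5 FPKM in the double knockdown, 281 with the SP3 siRNA, 65.8 with the SP1 siRNA and 359 and 358 in the controls. ID2, an inhibitor of helix-loop-helix factors, was at 182 FPKM in the double knockdown, 137 with the SP3 siRNA, 91.7 with the SP1 siRNA and 69.4 and 66.7 in the controls, and rose with the SP3 siRNA (limma adjusted p = 2.49e-09). Picking up to 2 genes by smallest p per list and comparison with the controls gave 36 differences, 24 of them for the single siRNAs. Other differences of these genes given above are not counted here. Of the 24, 11 kept their direction but missed the threshold in the additive model (limma adjusted p = 0.0512 to 0.812). Those 11 were WNT16, WNT7B, LGR4, KREMEN1 and CSNK1G3 with the SP3 siRNA, and WNT16, LGR4, LRP6, GSK3A, CBY1 and MYC with the SP1 siRNA. A further 1, KREMEN1 with the SP1 siRNA, changed sign there, so its call did not hold either. The calls that held were 7 with the SP3 siRNA and 5 with the SP1 siRNA. Without a filter on low values 11 of the 36 picked differences missed the threshold (adjusted p = 0.0508 to 0.092). They were WNT16 in each comparison, LRP5 and DVL1 in the double knockdown, WNT7B, LRP5, CSNK1A1 and CSNK1G3 with the SP3 siRNA, and LRP6 and KREMEN1 with the SP1 siRNA.

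**Figure D4:**
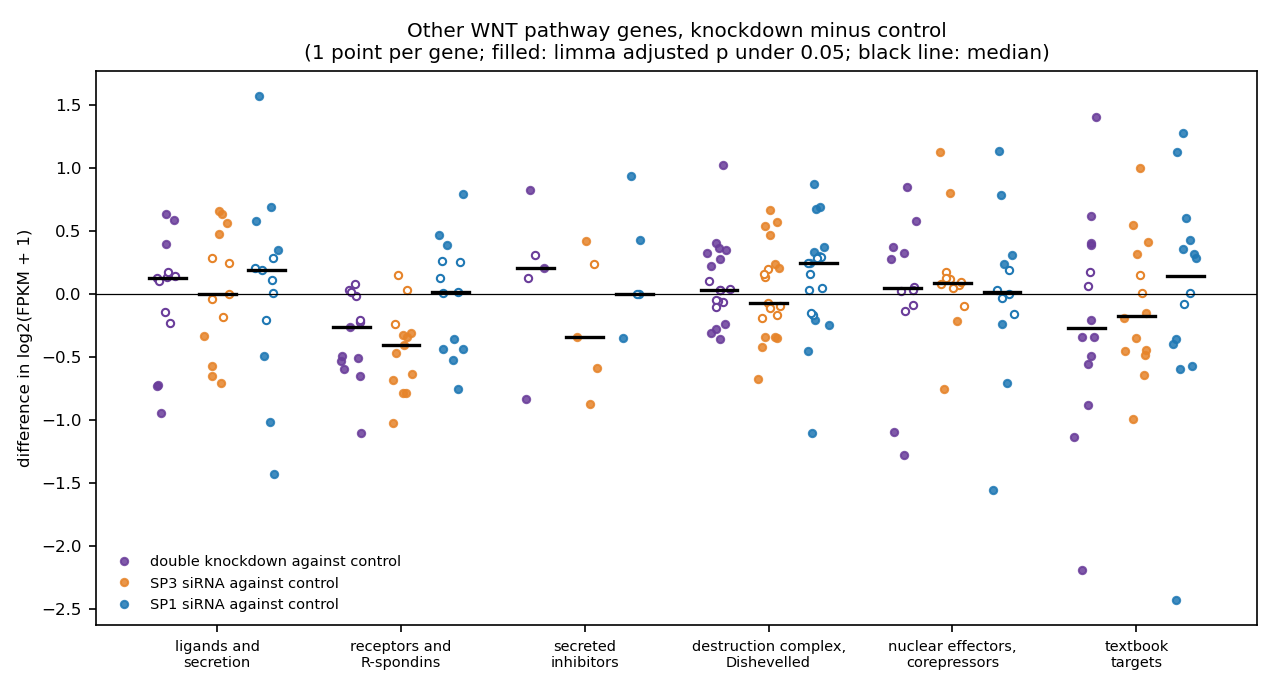
Difference in log2(FPKM + 1) from the mean of the controls (y axis) for each of 76 tested pathway genes in 6 lists (x axis), in purple for the double knockdown, orange for the SP3 siRNA and blue for the SP1 siRNA, filled where the limma adjusted p was under 0.05, with black lines at the medians. Receptors with the SP3 siRNA have 10 filled points, each below 0.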

How the data were processed

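RNA of 5 HCT116 libraries was sequenced, and the authors deposited 1 table of FPKM values per library. Per the submitters' processing notes the tools included HTSeq 0.9.1, Cufflinks 2.2.1, HISAT2 2.0.5 and Trimmomatic 0.36, with no role or order stated. For genome build, annotation and strand the sources used here give no entry, and without strand, reads of overlapping genes cannot be told apart. The step of low values gave the relative depths, and 217 single-transcript genes of GENCODE 29 the absolute depth. Whole reads, within 0.02, were recovered for 17122 of 17125 genes above 0, against 0.4% of 500 genes jittered by chance. The jittered genes were drawn from those above 1 FPKM in some library, so these rates cover unlike sets of genes. The recovered length is the smallest that fits, so reads are lower limits. Intervals and floors cover counting error only. Because the unit was FPKM, moderated tests with a mean-variance trend (limma 3.58.1 under R 4.3.3) were run on log2(FPKM + 1) for the 11728 genes that reached 1 FPKM in any library, with 1 mean per group. There was 1 residual degree of freedom, from the 2 controls, and 13.98 prior degrees of freedom. Alternatives were a pseudocount of 0.1, a mean of at least 5 FPKM, no filter, median-ratio scaling, the additive model, leaving out each control, and voom on recovered reads, which was chosen after seeing the data. The members and lists were chosen with earlier results of these data known. All 10 members are named with SP1 and SP3. From each list and each comparison with the controls, up to 2 genes with the smallest p were named among calls with a mean of at least 5 FPKM and the same direction against each control. Sequences are from RefSeq, GRCh38.p14.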

Additional observations from a re-analysis of the deposited data

How the results depend on the processing

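No paired analysis was possible because the knockdown groups have 1 library each and their labels carry no replicate number. Counts of members called by limma changed most with the filter. With a mean of at least 5 FPKM, 4 members remained testable, and all 28 of their differences kept their side of the threshold and their direction. Against control, 4 were called in the double knockdown, 3 with the SP3 siRNA and 2 with the SP1 siRNA. Called against the SP1 siRNA were 3 in the double knockdown and 4 with the SP3 siRNA. Against the SP3 siRNA, 3 were called in the double knockdown. With no filter the counts were 0 in the double knockdown against control, 1 with the SP3 siRNA, 0 with the SP1 siRNA, 0 in the double knockdown against either single siRNA and 2 with the SP3 siRNA against the SP1 siRNA. In the additive model 3 members were called with the SP3 siRNA and 0 with the SP1 siRNA. Of 11728 tested genes, 1805 were called there for the SP3 siRNA and 900 for the SP1 siRNA. With 1 mean per group the calls numbered 7225 and 7666. With no filter, and so 17125 tested genes, the calls numbered 3157 in the double knockdown against control instead of 7387. They numbered 2106 with the SP3 siRNA, 4180 with the SP1 siRNA and 2636 instead of 7353 between the single siRNAs. They numbered 0 there for the double knockdown against the SP1 siRNA (5566 with the filter), against the SP3 siRNA (3871) and for the interaction (4630). With a mean of at least 5 FPKM, 7127 genes were tested. Of these, 4986 were called in the double knockdown against control, 4973 with the SP3 siRNA and 5109 with the SP1 siRNA. In the double knockdown 4050 were called against the SP1 siRNA and 3190 against the SP3 siRNA, and 4952 between the single siRNAs. Past 1.5-fold without a test, a pseudocount of 0.1 gave 2 members in the double knockdown and 1 with the SP1 siRNA instead of 0 each. With the SP3 siRNA it gave 4 instead of 3. Leaving out either control gave 0 to 1 in the double knockdown, the 1 being without control 1. It gave 3 to 4 with the SP3 siRNA and 0 with the SP1 siRNA. Shares over all tested genes are not given for these settings, so these counts have no background beside them. Signs changed for values near 0: CTNNB1 in the double knockdown against the SP3 siRNA (-0.008 under median-ratio scaling), AXIN2 with the SP3 siRNA (0.028 in the additive model), and the interactions of RNF43 (0.007 under median-ratio scaling) and NKD1 (0.006 with voom). In the double knockdown AXIN2 was -0.027 without control 2 and ZNRF3 -0.018 without control 1. KREMEN1 with the SP1 siRNA was 0.142 in the additive model. Median-ratio scaling kept side and direction in 59 of 63 member differences and the pseudocount in 62 of 63. ZNRF3, APC, AXIN2 and TCF7 had 100 to 336 reads a library, which limits the precision of their differences. Leaving out a control leaves no residual degrees of freedom, so those values have no test.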

Other observations

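The balance between paralogous members differed across libraries. RNF43 exceeded ZNRF3 in FPKM by a ratio of 5.98 in the double knockdown, 9.57 with the SP3 siRNA, 3.73 with the SP1 siRNA and 4.79 and 3.65 in the controls. TCF7L2 exceeded TCF7 by a ratio of 48.4, 91.2, 24.2, and 49.5 and 54.7 in the same order of libraries. The double knockdown ratio of the TCF factors lay just under both controls, with the SP3 siRNA ratio above and the SP1 siRNA ratio below them. These ratios were not tested.

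The ligand gene WNT3A, chosen after its values were seen because its mean is under 5 FPKM, was at 1.62 FPKM in the double knockdown, 0.754 with the SP3 siRNA, 4.20 with the SP1 siRNA and 0.668 and 0.840 in the controls. Its difference with the SP1 siRNA was 1.57 ± 0.13. It passed the filter through the SP1 siRNA and double knockdown libraries, so a difference there was built into its selection. FZD4, a Frizzled receptor also chosen after its values were seen, was at 1.65 FPKM in the double knockdown, 1.28 with the SP3 siRNA, 3.66 with the SP1 siRNA and 1.59 and 1.79 in the controls. It rose by 0.80 ± 0.13 with the SP1 siRNA, where FZD1, FZD5, FZD6 and FZD7 fell by 0.44, 0.36, 0.53 and 0.44. LEF1, a TCF relative on the nuclear list, was under the filter in every library, at 0.0330 FPKM in the double knockdown, 0.0152 with the SP3 siRNA, 0.0473 with the SP1 siRNA and 0.108 and 0.0762 in the controls.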
